A study of Mus musculus with 21 samples.

Results

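Regulatory T cells (Tregs) and conventional T cells (Tconvs) of the infarcted mouse heart were compared across all genes measured. The comparison uses 6 of the 21 libraries of the series, the 3 heart Treg and the 3 heart Tconv libraries, which were picked by the group in their titles. Every library came from Foxp3-GFP transgenic mice of 8 weeks, taken 7 days after myocardial infarction (MI), so the transgene and the infarct are common to all groups, and no uninjured heart was analysed here. In these mice cells that express Foxp3, the gene that defines Tregs, carry green fluorescent protein. Cells were sorted with magnetic beads and then by flow cytometry. The labels give neither the gates, nor how many mice were pooled, nor whether replicates were separate mice, so p-values measure the spread between these libraries, which may be technical. Of the other 15 libraries, the Tregs and Tconvs of the spleen and of a non-draining lymph node (NDLN) serve below to test whether the gap between the cell types differs by tissue.

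Tregs are CD4+ T cells that hold back other immune cells. Their identity rests on the transcription factor Foxp3, which works with partners of the Ikaros family, and they act through surface molecules such as CTLA-4, through the capture of growth factors and through secreted cytokines such as IL-10. Tconvs comprise the naive, helper and memory cells that drive immune responses. After an infarct both kinds of cell enter the heart muscle, where Tregs are known to temper inflammation and to take part in healing.

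The heart libraries held 17360914 to 28323649 counts and 10980 to 16239 genes with at least 1 count. They fell into 2 sets by the share of counts on the mitochondrial ribosomal RNA genes mt-Rnr1 and mt-Rnr2. Treg 1, Tconv 1 and Tconv 2 lay at 0.0915%, 0.0567% and 0.102%, and Treg 2, Treg 3 and Tconv 3 at 4.15%, 3.99% and 0.954%. These sets are called below the libraries under and over a share of 0.5%, and the line between them the divide. Ribosomal protein genes took 5.75% to 8.38% of the counts under the divide and 12.1% to 13.1% over it. In log-CPM, Treg 1 correlated with Tconv 1 and Tconv 2 at Pearson's r of 0.768 and 0.769 across genes, and with Treg 2 and Treg 3 at 0.694 and 0.686. With Tconv 3, across the divide, Treg 1 correlated at 0.712. In these terms Treg 1 lay closer to every Tconv library than to the other Tregs, and closest to those of its own side. Tconv 3 correlated with Tconv 1 and Tconv 2, across the divide, at 0.77 and 0.734. With Treg 2 and Treg 3 of its own side it correlated less, at 0.705 and 0.703. Among the genes tested, 2683 (17.9%) had no overlap between the 3 libraries under the divide and the 3 over it, while 1836 (12.2%) had none between the 3 Treg and the 3 Tconv libraries. Cd28, the costimulatory receptor of T cells, and Hsp90aa1, a stress-inducible chaperone, show the first pattern and were chosen after their values were seen. Cd28 stood at 65.3, 953 and 849 CPM in Tregs 1, 2 and 3 and at 86.9, 72.2 and 648 CPM in Tconvs 1, 2 and 3. Hsp90aa1 stood at 43.6, 979.6 and 796 CPM and at 76.8, 71.7 and 1118 CPM in the same order. Both genes were high in the 3 libraries over the divide, whichever cell type they held.

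With all 21 libraries in a single fit, 10 of 14996 genes passed an adjusted p of 0.05 between heart Tregs and heart Tconvs in edgeR's quasi-likelihood test, 0.0667% of those tested. Tregs were higher for 7 of them (0.0467%), Foxp3, Ikzf2, Ctla4, Lrrc32, Ccr3, Rln3 and Cep112, and lower for 3 (0.02%), Tcf7, H2-Aa and Gm19261. All 10 lay on the same side of 0 under and over the divide, and in each the Treg and Tconv libraries did not overlap. At an unadjusted p of 0.05, 1171 genes passed (7.81%), of which 381 (2.54%) were higher and 790 (5.27%) lower in Tregs. Other tools called more genes: limma-voom 206 (1.37%) and DESeq2 981 (6.54%), with most of them lower in Tregs. The count of 10 rested on single libraries. Without Treg 1 it was 33, without Treg 3 it was 6, without Tconv 1 it was 3 and without Tconv 2 it was 6. A fit of the 6 heart libraries alone called 1 gene, Foxp3. Levels below are CPM scaled with TMM factors, given for replicates 1, 2 and 3 in that order.

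**Figure D1:**
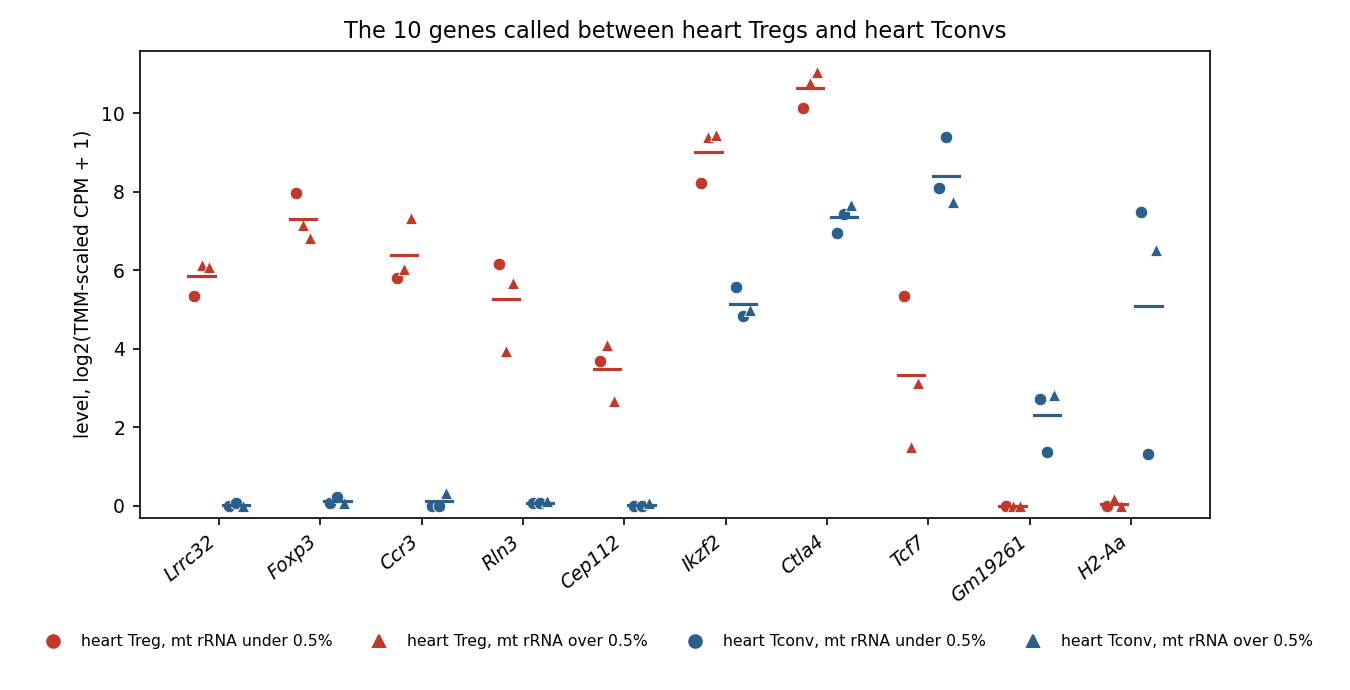
Levels of the 10 called genes in each heart library, as log2(TMM-scaled CPM + 1), with circles for libraries under and triangles for libraries over the 0.5% share of mitochondrial rRNA and a bar at each group's mean. The red Treg points and the blue Tconv points of a gene do not overlap in any of the 10, and Lrrc32, Foxp3, Ccr3, Rln3 and Cep112 lie at or near 0 in all 3 Tconv libraries.

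The transcription factors called were Foxp3, Ikzf2 and Tcf7. Foxp3 (ENSMUSG00000039521, chromosome X, 7573644 to 7595245, plus strand) stood at 248, 142 and 113 CPM in Tregs and at 0.04504, 0.164 and 0.0437 CPM in Tconvs. Its log2 fold change was 10.85 ± 0.94 (SE), with an adjusted p of 1.2e-05. The Treg label therefore matched the marker in all 3 libraries, and the Tconv libraries held Foxp3 at a trace. Cells that express Foxp3 carry green fluorescent protein in these mice, and the gates are not given. A sort on that protein would by itself give this gap, so the gap is read as a check of the labels. Ikzf2, which encodes Helios, an Ikaros family factor of Tregs (ENSMUSG00000025997, chromosome 1, 69531214 to 69687245, minus strand), stood at 296, 678 and 701 CPM in Tregs against 46.6, 27.3 and 30.8 CPM in Tconvs. That is a log2 fold change of 4.0 ± 0.5, with an adjusted p of 0.00095. Unlike Foxp3, Helios transcripts were thus present in every Tconv library at a low level. Tcf7 encodes TCF-1, a factor of naive and memory T cells (ENSMUSG00000000782, chromosome 11, 52252371 to 52283014, minus strand). It stood at 39.99, 1.82 and 7.74 CPM in Tregs and at 275, 669.7 and 214 CPM in Tconvs, a log2 fold change of -4.55 ± 0.84 with an adjusted p of 0.042. The highest Treg value, in Treg 1, came from the side of the divide that also held the highest Tconv value. Tcf7 missed the threshold in 4 of the 6 fits that left out a heart library, with an adjusted p of up to 0.22.

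Among surface molecules, Ctla4 was the most abundant called gene. Its product competes with CD28 for the ligands of costimulation (ENSMUSG00000026011, chromosome 1, 60887000 to 60915832, plus strand). Ctla4 stood at 1117, 1742 and 2106 CPM in Tregs and 122, 173 and 203 CPM in Tconvs, and its log2 fold change was 3.32 ± 0.53 with an adjusted p of 0.015. Every Tconv library expressed the gene at a lower level, and the ratio of the means was 9.97. Lrrc32 encodes GARP, which docks latent TGF-beta on Tregs (ENSMUSG00000090958, chromosome 7, 98489283 to 98502181, plus strand). It stood at 39.6, 69.4 and 66.4 CPM in Tregs and at 0, 0.04103 and 0 CPM in Tconvs (adjusted p 0.025). With 1 count in all Tconv libraries together the ratio was 4116, with an exact 95% counting interval of 738.4 to 162600. Ccr3, the eotaxin receptor best known from eosinophils and type 2 cells (ENSMUSG00000035448, chromosome 9, 124021972 to 124031689, plus strand), stood at 54.6, 64.9 and 161 CPM in Tregs. In Tconvs it stood at 0, 0 and 0.262 CPM, and the log2 fold change was 9.98 ± 1.8 with an adjusted p of 0.035. Treg 3 held more than either other Treg library, and both Tconv libraries under the divide held no Ccr3 read. Ctla4, Lrrc32 and Ccr3 each missed the threshold without Treg 3, without Tconv 1 and without Tconv 2, with adjusted p-values of up to 0.15, 0.21 and 0.25, and Lrrc32 also without Tconv 3.

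The remaining called genes higher in Tregs were Rln3 and Cep112. Rln3, a peptide hormone of the relaxin family studied mainly in the brain (ENSMUSG00000045232, chromosome 8, 84042929 to 84045000, minus strand), stood at 70.8, 14.4 and 50.6 CPM in Tregs and at 0.04504, 0.04103 and 0.0874 CPM in Tconvs. Its log2 fold change was 9.48 ± 1.72 with an adjusted p of 0.035. Cep112, a centrosomal protein (ENSMUSG00000020728, chromosome 11, 108425192 to 108860615, plus strand), stood at 11.8, 16.1 and 5.31 CPM in Tregs and at 0, 0 and 0.0437 CPM in Tconvs (adjusted p 0.025). The ratio for Cep112, against 1 Tconv count, was 760.7 with a counting interval of 136.1 to 30080. Both genes were at a trace in Tconvs on both sides of the divide. Rln3 lost its call in 4 and Cep112 in 2 of the 6 fits without a heart library, with adjusted p-values of up to 0.32 and 0.21.

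On the Tconv side, H2-Aa encodes the alpha chain of MHC class II, which presents peptides on dendritic cells, macrophages and B cells (ENSMUSG00000036594, chromosome 17, 34282744 to 34287823, minus strand). It stood at 0, 0.119 and 0 CPM in Tregs and at 177, 1.48 and 90.6 CPM in Tconvs, with an adjusted p of 0.015. The 3 Treg counts give a ratio of 2157 with a counting interval of 737.7 to 10460. Tconv 2 lay far under the other Tconv libraries but above every Treg. H2-Aa missed the threshold only without Treg 3, among the fits that left out a heart library (adjusted p 0.068). Gm19261 is annotated as an antisense gene (ENSMUSG00000100529, chromosome 19, 11516211 to 11516953, minus strand). It had 0, 0 and 0 CPM in Tregs and 5.58, 1.600 and 6.12 CPM in Tconvs, which is at least 108.1-fold lower against a floor of 3 counts over the Treg group (adjusted p 0.016). It overlaps Ms4a6b on the other strand, and whether strand was used in counting is not given in the sources used here, so reads of the 2 genes may not be told apart. Ms4a6b itself stood at 721, 1898 and 2106 CPM in Tregs and 1193, 1059 and 1976 CPM in Tconvs, where the groups overlap. Gm19261 lost its call without Treg 2, without Treg 3 and without Tconv 1, with an adjusted p of up to 0.063.

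Promoter sequence was at hand for 7 of the 10 called genes in RefSeq's table for GRCm38.p6, and not for Ikzf2, Lrrc32 and Gm19261. Of those at hand, 3 that were higher in Tregs and 1 that was lower are shown, as the 250 bases before the first listed start site. They run 5′ to 3′ on the strand of the gene, and capitals mark matches on either strand to 4 motifs: the forkhead motif TGTTTAC, the core element of NFAT with the letters TTTTCC, the TATA box, spelled TATAAA, and the CCAAT box, which is searched by these 5 letters and reads ATTGG on the opposite strand. None of the matches overlap each other. Foxp3 lies at chrX:7579426-7579675 (plus strand), Ctla4 at chr1:60908775-60909024 (plus), Ccr3 at chr9:124021721-124021970 (plus) and H2-Aa at chr17:34287824-34288073 (minus).
Foxp3: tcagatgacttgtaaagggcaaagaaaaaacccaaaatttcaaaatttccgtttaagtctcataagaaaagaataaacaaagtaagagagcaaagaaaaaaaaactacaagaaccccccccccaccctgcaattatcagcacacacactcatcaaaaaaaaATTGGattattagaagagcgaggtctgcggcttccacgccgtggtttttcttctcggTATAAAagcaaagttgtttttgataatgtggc
Ctla4: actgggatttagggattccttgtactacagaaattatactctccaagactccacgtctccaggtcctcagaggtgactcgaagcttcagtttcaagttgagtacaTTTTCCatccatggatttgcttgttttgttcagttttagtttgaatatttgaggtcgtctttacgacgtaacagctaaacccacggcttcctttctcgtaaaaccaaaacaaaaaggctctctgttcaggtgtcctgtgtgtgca
Ccr3: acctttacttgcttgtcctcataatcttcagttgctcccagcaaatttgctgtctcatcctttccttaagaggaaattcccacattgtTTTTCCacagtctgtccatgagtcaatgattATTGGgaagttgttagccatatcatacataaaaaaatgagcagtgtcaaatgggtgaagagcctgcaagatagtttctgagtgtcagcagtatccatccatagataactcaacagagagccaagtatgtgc
H2-Aa: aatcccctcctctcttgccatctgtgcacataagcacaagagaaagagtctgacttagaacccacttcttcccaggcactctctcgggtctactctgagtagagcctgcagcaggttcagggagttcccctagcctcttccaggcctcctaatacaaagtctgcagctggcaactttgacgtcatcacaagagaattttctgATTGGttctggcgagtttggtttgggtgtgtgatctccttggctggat

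The Foxp3 window held a TATA box from 32 to 27 bases before the start site and a CCAAT box from 89 to 85 bases before it. In Ctla4 the NFAT core, the element bound by the calcium-activated factor of T cell receptor signalling, lay 145 to 140 bases before the start. Ccr3 held the NFAT core at 162 to 157 bases and a CCAAT box at 131 to 127 bases, and H2-Aa a CCAAT box at 48 to 44 bases before the start. A reversed CCAAT box close to the start is a textbook feature of MHC class II promoters. Of the 32851 windows of this length in the table, 20.4% held the NFAT core, 12.4% the TATA box, 33.8% the CCAAT box and 3.17% the forkhead motif, so such matches are common, and they are descriptions of these windows only.

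Across the divide the 2 sides share no library: under it Treg 1 stands against Tconv 1 and Tconv 2, and over it Treg 2 and Treg 3 stand against Tconv 3. Of 8828 genes with a mean of at least 5 CPM, 4789 (54.2%, Wilson 95% interval 53.2% to 55.3%, which covers counting error only) had the same sign of Treg minus Tconv on both sides, in mean log2(CPM + 1). Of these 2093 were higher in Tregs on both sides and 2696 lower. The 2 differences correlated across genes at Pearson's r of 0.165 and Spearman's rho of 0.125, and genes are not independent replicates. Agreement was 51.6% among 3408 genes at 5 to 20 CPM, 54.1% among 3805 at 20 to 100 CPM, 60.5% among 1315 at 100 to 500 CPM and 59.7% among 300 genes from 500 CPM. Pearson's r rose along the same steps, from 0.104 and 0.209 to 0.458 and 0.525. Among 2111 genes with at least 1 log2 unit on both sides, 59.4% had the same sign. Agreement was thus close to 50% among genes of low level and higher among abundant genes.

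The called genes had gaps of over 2 log2 units on both sides, and since a call over all libraries favours genes with the same sign on both sides, these are given as a description. Foxp3 differed by 7.82 log2 units under the divide and 6.93 over it, Ctla4 by 2.93 and 3.23, and Cep112 by 3.68 and 3.31. Ikzf2 differed by 3.02 under and 4.44 over the divide, Tcf7 by -3.39 and -5.44, and H2-Aa by -4.39 and -6.44. Tested as an interaction in edgeR, no gene had a gap that differed between the sides (0 of 14996, 0.0%), with 575 at an unadjusted p under 0.05 (3.83%). Limma-voom called 4 genes (0.0267%) and DESeq2 765 (5.1%). In this test 1 Treg library stands alone under the divide and 1 Tconv library over it, and both are taken to vary as the remaining groups do, so the 0 does not show that the gaps were alike. Fits within a single side set 1 library of a cell type against 2 of the other, beside the libraries of other tissues on that side. No count of genes is read from them.

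**Figure D2:**
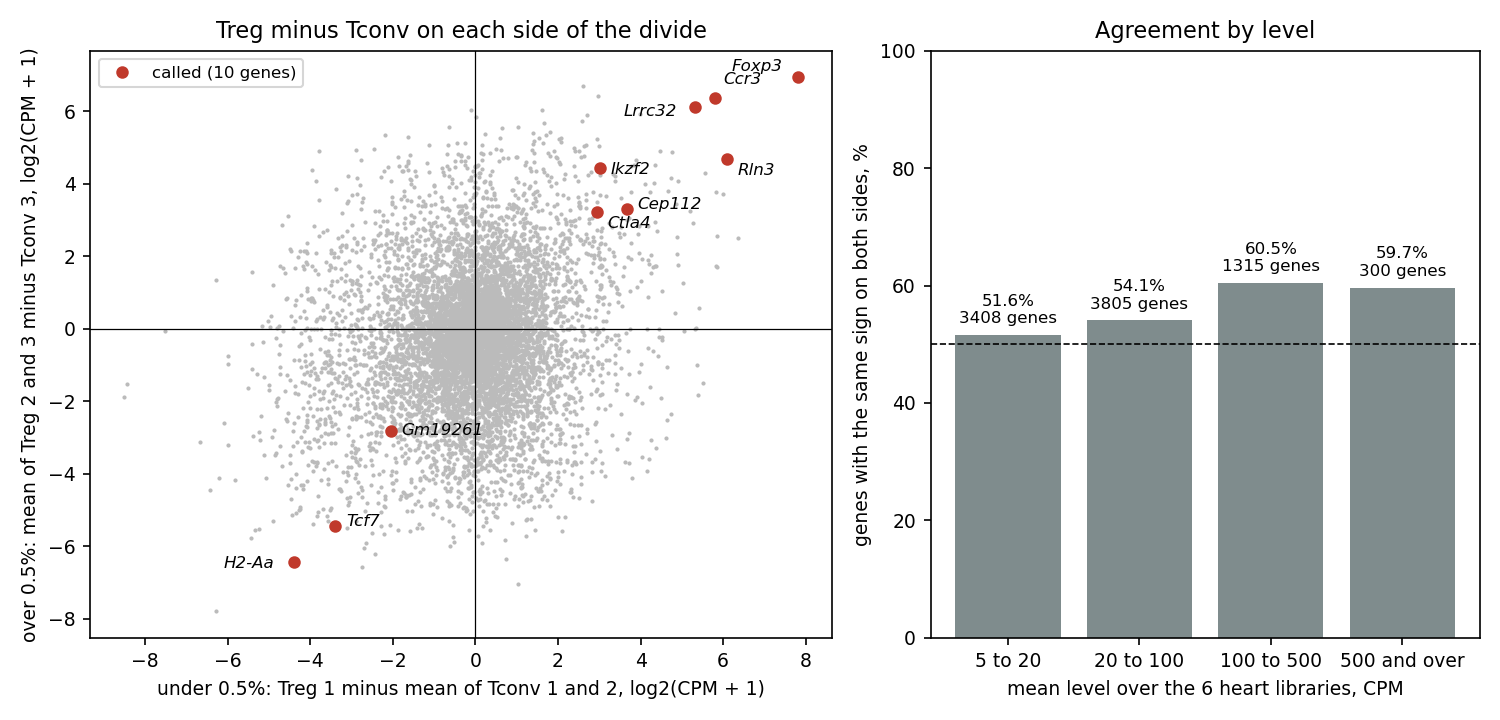
Left, Treg minus Tconv in log2(CPM + 1) for 8828 genes, under the divide on the horizontal and over it on the vertical axis, with the 10 called genes in red, Gm19261 among them although its mean is under 5 CPM; right, the percent of genes with the same sign on both sides by mean level, with a dashed line at 50%. The called genes all lie in the quadrants where both sides have the same sign, while the grey genes spread over all 4 quadrants.

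The gene lists used next were written with earlier results of these data known, and no test was run on a list. Over all 14996 genes tested, 43.7% had a log2 fold change above 0 and 53.8% below 0, the median was -0.12, 4.07% had all Treg libraries above all Tconv libraries and 8.17% the reverse, and 18.0% were higher and 29.1% lower in Tregs on both sides of the divide. Each list is to be read against these shares. The lists, those of other cell types included, share members: 69 of their 487 genes stand in more than 1 list. Ctla4, Ccr3 and Tcf7 are among these, so the lists are not separate results. In bulk libraries fewer cells of a type and less RNA per cell cannot be told apart.

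The Treg identity list of 23 genes had 20 members higher and 3 lower in Tregs, a median log2 fold change of 1.90, 10 members without overlap in that direction and 5 called: Foxp3, Ikzf2, Ctla4, Lrrc32 and Cep112. Of the 23, 17 were higher on both sides of the divide. Il2ra, the high-affinity chain of the IL-2 receptor, stood at 252, 443 and 249 CPM in Tregs and at 63.2, 6.61 and 26.1 CPM in Tconvs. The groups did not overlap, and the adjusted p was 0.63. Tnfrsf9, the costimulatory receptor 4-1BB, stood at 1917, 1032 and 719.5 CPM in Tregs and 91.2, 42.8 and 50.3 CPM in Tconvs, also without overlap (adjusted p 0.12). At the other end, Nt5e, the ectoenzyme CD73, stood at 419, 294 and 64.1 CPM against 161, 161 and 169 CPM, with Treg 3 below every Tconv library. Swap70, a signalling adaptor, stood at 48.01, 25.7 and 0.0379 CPM against 16.3, 13.9 and 17.5 CPM, and its Treg values span the Tconv range. Cd4 and Cd3e, which both cell types share, stood at 64.9, 119 and 23.6 and 284, 205 and 319 CPM in Tregs and at 108, 43.04 and 77.01 and 267, 226 and 432 CPM in Tconvs, so the T cell label held in all 6 libraries.

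Factors that work beside Foxp3, in a list of 25, were split, with 12 members higher, 13 lower and a median of -0.01. Ikzf2 rose and Tcf7 fell in Tregs, as given above, and no other member was called. Maf, which drives IL-10 in T cells, stood at 180.2, 126 and 265 CPM in Tregs and 120.2, 42.3 and 104 CPM in Tconvs. Ikzf1, the founding Ikaros factor, stood at 61.9, 68.9 and 41.8 CPM against 108, 64.6 and 172 CPM, with Treg 2 above Tconv 2. Irf4, a factor of activated lymphocytes, stood at 15.7, 79.2 and 14.4 CPM against 47.9, 45.6 and 11.98 CPM. Maf lay without overlap above the Tconvs, and Irf4 overlapped throughout.

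Suppressive effector genes numbered 17 tested of 18, with 14 higher, 3 lower, a median of 1.72 and 8 without overlap above the Tconvs. Ctla4 and Lrrc32 were the members called. Il10, the main anti-inflammatory cytokine of Tregs, stood at 507, 1378 and 663 CPM in Tregs and 9.23, 33.8 and 31.6 CPM in Tconvs. Every Treg library exceeded the highest Tconv by more than 10-fold, and the difference was 4.75 log2 units under and 4.88 over the divide, though the adjusted p was 0.60. Lgals1, the secreted lectin galectin-1, stood at 1755, 3923 and 3724 CPM against 961, 911 and 1681 CPM without overlap. Gzmb, granzyme B, named after its values were seen, stood at 1139, 2319 and 932 CPM in Tregs and at 182, 295 and 150.2 CPM in Tconvs. Prf1, the pore protein perforin that lets granzymes into target cells, went the other way, with 0, 0 and 0 CPM in Tregs and 8.29, 15.6 and 6.34 CPM in Tconvs, at least 253.3-fold lower against the floor of 3 counts (adjusted p 0.60). Pdcd1, the receptor PD-1, stood at 52.3, 27.7 and 54.9 CPM and 38.6, 27.7 and 41.7 CPM, and Tgfb1, the cytokine TGF-beta 1, at 9.12, 3.56 and 1.67 CPM and 18.3, 1.81 and 1.75 CPM; both overlapped.

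The list of tissue-repair Treg genes had 20 of 22 members higher, 2 lower and a median of 1.54. Of its members, 10 lay without overlap above the Tconvs and none below, and 15 were higher on both sides of the divide. None was called by edgeR, and 5 had an unadjusted p under 0.05. Il1rl1, the receptor ST2 for the alarmin IL-33, stood at 166, 81.9 and 59.8 CPM in Tregs and 8.51, 7.38 and 4.15 CPM in Tconvs. Areg, the epidermal growth factor family ligand amphiregulin, stood at 283, 106 and 579.6 CPM in Tregs against 75.7, 93.01 and 21.9 CPM in Tconvs. Both had every Treg library above every Tconv library, with adjusted p-values of 0.60 and 0.60. For Areg the margin was narrow, from 93.01 CPM in Tconv 2 to 106 in Treg 2. Klrg1, an inhibitory receptor of differentiated cells, stood at 337, 222 and 380.2 CPM against 71.1, 13.5 and 14.6 CPM. Among 16 tested repair and growth factor genes, 9 were higher and 7 lower, with a median of 0.51. Of the 16, 7 did not have the same sign on both sides of the divide. Vegfb and Tgfb3 were among these and had no reads in the heart libraries over it. Csf2, the cytokine GM-CSF, stood at 0, 0 and 0 CPM in Tregs and 6.22, 1.52 and 2.27 CPM in Tconvs, and Lif, a cytokine of the IL-6 family, at 1.63, 0 and 0 CPM and 1.26, 0 and 0.393 CPM.

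Of 18 TNF family and costimulation genes, 10 were higher and 8 lower, with 3 and 4 without overlap. Tnfrsf4, the receptor OX40, stood at 3269, 2269 and 2646 CPM in Tregs and 645, 581 and 836 CPM in Tconvs, and Tnfrsf18, the receptor GITR, at 565, 1239 and 1418 CPM and 224, 159.8 and 729 CPM. In OX40 the groups lay apart; in GITR Tconv 3 stood above Treg 1, and each group's own highest values came from over the divide. On the ligand side, Cd40lg, through which helper T cells activate B cells and macrophages, stood at 26.1, 54.1 and 15.1 CPM in Tregs and 306, 121 and 557 CPM in Tconvs. Its adjusted p was 0.1, with no overlap. Tnfsf8, the ligand of CD30, stood at 178, 51.4 and 106 CPM against 294, 358 and 145 CPM, and there Treg 1 lay above Tconv 3. Ltb, lymphotoxin beta, followed neither cell type, with 3.57, 778 and 899.9 CPM in Tregs and 513, 0.903 and 942 CPM in Tconvs. Among 13 coinhibitory receptors 8 were higher and 5 lower, with Ctla4 called. Havcr2, the receptor TIM-3, stood at 63.3, 52.4 and 42.98 CPM in Tregs and 0, 4.76 and 1.705 CPM in Tconvs, whereas Cd160, a receptor of cytotoxic cells, stood at 0, 0.0395 and 0.0759 CPM and 4.14, 6.15 and 0.0437 CPM with overlap.

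Cytokine receptors leaned to neither side, with 9 of 22 higher, 13 lower and a median of -0.22. Tgfbr2, the receptor for TGF-beta, stood at 22.8, 27.4 and 10.4 CPM in Tregs and 174, 125 and 50.6 CPM in Tconvs without overlap (adjusted p 0.58). Il18r1, the IL-18 receptor of Th1 cells, stood at 46.4, 68.7 and 0.531 CPM against 202, 158 and 186 CPM, with Treg 3 close to 0. Ifngr1, the interferon gamma receptor, was even, with 2352, 1942 and 2018 CPM and 2662, 2112 and 2046 CPM. Of 18 chemokine and egress receptors, 11 were higher and 7 lower, 7 lay without overlap above the Tconvs, and Ccr3 was called. Ccr6, the receptor for CCL20, stood at 58.4, 30.9 and 53.8 CPM in Tregs and 0.04504, 5.83 and 0.393 CPM in Tconvs, and S1pr1, which guides T cells out of tissue into lymph, at 128, 88.98 and 122 CPM and 479, 99.3 and 347 CPM. Ccr6 separated the groups, whereas Tconv 2 fell among the Tregs for S1pr1. Gpr183, an oxysterol receptor that positions lymphocytes, stood at 278, 212 and 318 CPM against 601, 525 and 461 CPM without overlap, and Cxcr3, the receptor of Th1 homing, at 353, 141 and 115 CPM against 205, 152 and 234 CPM with overlap.

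Integrin and adhesion genes, 19 in all, had 7 higher and 12 lower. Itgb8, whose product activates latent TGF-beta, stood at 58.05, 4.35 and 6.68 CPM in Tregs and 0, 0.04103 and 0.0874 CPM in Tconvs (adjusted p 0.29). The excess was far larger in Treg 1, under the divide, than in the Tregs over it. Itgb1, the common beta chain of the integrins that bind matrix, stood at 117, 29.8 and 196 CPM in Tregs and 622, 380.2 and 262 CPM in Tconvs without overlap.

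Genes of naive and lymphoid-homing T cells had 15 of 17 members lower in Tregs, 2 higher, a median of -1.05 and 14 lower on both sides of the divide, with Tcf7 called. Dapl1, a marker of naive-like T cells, stood at 0, 0.0791 and 0.0759 CPM in Tregs and 28.9, 46.03 and 48.9 CPM in Tconvs. Rapgef4, a cAMP-regulated exchange factor, stood at 0.0881, 0.0395 and 0 CPM against 9.68, 6.44 and 11.6 CPM. Neither gene overlapped, and their adjusted p-values were 0.23 and 0.58. Ccr7 and Ly6c1 do not belong to that pattern. Ccr7, the lymph node homing receptor, stood at 1086, 569.7 and 721 CPM in Tregs and 855, 1112 and 596 CPM in Tconvs, and Ly6c1 at 46.3, 259 and 49.5 CPM and 102, 130.2 and 92.3 CPM.

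**Figure D3:**
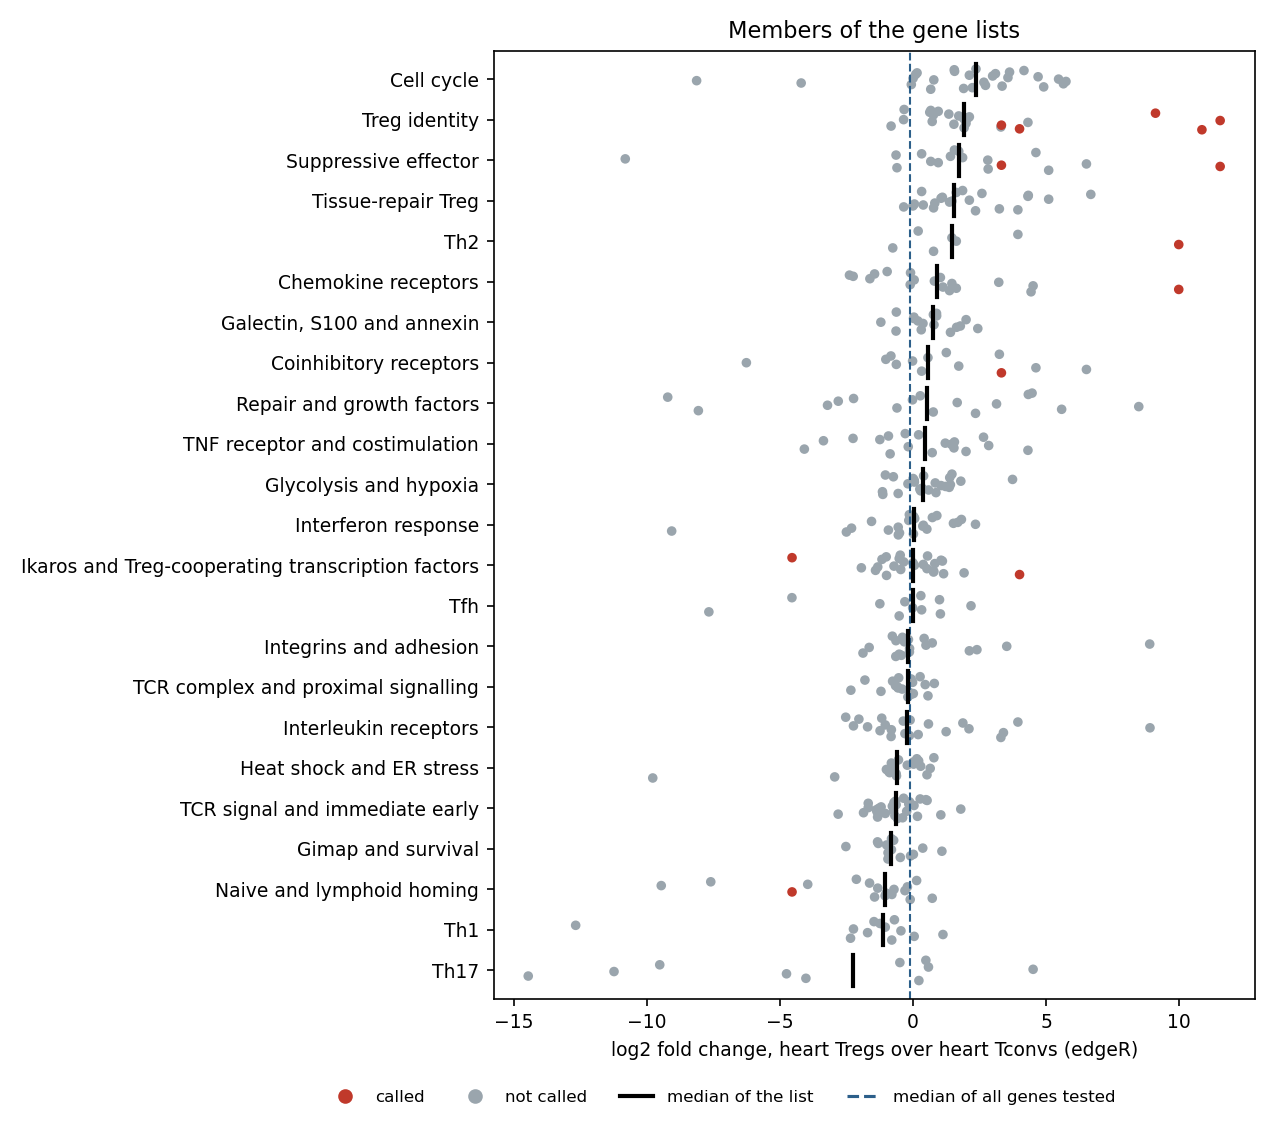
Log2 fold change of heart Tregs over heart Tconvs for the members tested of 23 lists of T cell and general programmes, without the lists of other cell types, one point per gene, red where called, with a black bar at the list's median and a dashed line at the median of all genes tested. Cell cycle, Treg identity and suppressive effector have the highest medians of the 23 (2.36, 1.90 and 1.72), and Th17, Th1 and naive and lymphoid homing the lowest (-2.26, -1.15 and -1.05); 7 of the 10 called genes stand in at least 1 of the lists plotted.

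Helper cell lists had medians on both sides of 0, and Ccr3 was the called member among them. In the Th17 list of 10 the median was -2.26, with 4 higher and 6 lower. Il17a, a neutrophil-recruiting cytokine named after its values were seen, stood at 36.6, 0 and 3.79 CPM in Tregs and 177, 335 and 145 CPM in Tconvs. Il17f, its close relative, stood at 0, 0 and 0 CPM in Tregs and 235, 144 and 0.0437 CPM in Tconvs, at least 3109-fold lower against the floor of 3 counts. Its Tconv reads came almost wholly from the libraries under the divide, as did those of Il23r, the receptor of the cytokine that sustains Th17 cells, at 0, 0 and 0 CPM in Tregs and 5.18, 35.4 and 0 CPM in Tconvs. Their adjusted p-values were 0.30 and 0.60. The Th1 list had 10 of 12 members lower and a median of -1.15, and 10 were lower on both sides of the divide. Gzmk, granzyme K, stood at 0.04404, 0 and 0 CPM in Tregs and 66.2, 95.8 and 221 CPM in Tconvs, a ratio of 9478 on 1 Treg count with a counting interval of 1701 to 374400 (adjusted p 0.32). Ifng, the signature cytokine of Th1 cells, stood at 0, 137 and 143 CPM against 732, 179.6 and 515 CPM, where Treg 1 had none. Ccl5, a chemokine of effector cells, stood at 119, 665 and 955 CPM against 1095, 879 and 2152 CPM, with overlap. The Th2 list had 6 of 7 members higher and a median of 1.46, and 6 were higher on both sides. Ccr8, a receptor of skin-homing and tissue Tregs, stood at 493, 359 and 291 CPM in Tregs and 197, 123 and 95.8 CPM in Tconvs without overlap, while Il4, the signature cytokine, stood at 19.5, 0.395 and 0.0379 CPM and 1.26, 14.6 and 17.96 CPM with overlap. In the Tfh list 5 members were higher and 6 lower, with a median of -0.02.

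Genes of T cell receptor signalling were lower more often than higher. Of 29 immediate early and feedback genes, 22 were lower and 7 higher, with a median of -0.66, and 9 lay without overlap below the Tconvs and none above. None was called, and 3 had an unadjusted p under 0.05. On both sides of the divide 15 were lower and 1 higher, while 13 did not have the same sign on both. Egr1, an early growth response factor, stood at 33.8, 28.04 and 29.9 CPM in Tregs and 183, 239 and 223 CPM in Tconvs. Dusp2, a phosphatase that dampens MAP kinases, stood at 201, 186 and 76.2 CPM against 540.5, 653 and 297 CPM, and Nfkbid, a nuclear regulator of NF-kB, at 159, 123 and 27.3 CPM against 294, 427 and 270.4 CPM. All 3 separated the groups on both sides of the divide. Myc, which drives growth after activation, overlapped at 29.8, 36.4 and 41.7 CPM and 30.9, 23.9 and 50.6 CPM. Of 19 genes of the receptor complex and its proximal kinases, 14 were lower. Lck, the kinase that starts the signal, stood at 694, 376 and 236 CPM in Tregs and 786, 998 and 1228 CPM in Tconvs, and Cd2, an adhesion receptor that aids it, at 2322, 1816 and 1574 CPM and 988, 1047 and 1251 CPM. They lay apart in opposite directions, and Lck differed by -0.35 log2 units under the divide and -2.04 over it. Cd247, the zeta chain, followed neither cell type, at 21.01, 377 and 319 CPM and 321, 23.1 and 368 CPM.

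Survival genes had 11 of 14 members lower in Tregs and a median of -0.81. Bcl2, the classical inhibitor of apoptosis, stood at 6.298, 20.7 and 21.7 CPM in Tregs and 71.3, 108 and 101 CPM in Tconvs (adjusted p 0.29). The Gimap GTPases, which support the survival of lymphocytes, did not move as one. Gimap6 stood at 1276, 713 and 548 CPM in Tregs and 1697, 1975 and 1201 CPM in Tconvs, Gimap7 at 351, 268 and 276 CPM and 137, 135 and 151 CPM. Gimap7 was thus higher in every Treg library, and Treg 1 overlapped Tconv 3 for Gimap6. In the heat shock and ER stress list 8 of 20 were higher and 12 lower, with 10 lower on both sides. Dnaja1, a cochaperone of Hsp70, stood at 438, 431 and 479 CPM in Tregs and 1067, 778 and 690.2 CPM in Tconvs without overlap (adjusted p 0.49), and Calr, the ER chaperone calreticulin, at 269, 340.4 and 227 CPM and 409, 265 and 159 CPM with overlap.

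Galectin, S100 and annexin genes of effector and tissue T cells had 14 of 17 members higher, a median of 0.76 and 8 without overlap above the Tconvs. S100a10, the partner of annexin A2, stood at 2388, 4572 and 5334 CPM in Tregs and 992, 1080.3 and 1519 CPM in Tconvs (adjusted p 0.1). S100a6, calcyclin, stood at 1704, 2812 and 3068 CPM against 721, 639.9 and 1081 CPM, and Crip1, a small LIM protein, at 2822, 4158 and 4312 CPM against 1796, 1581 and 2761 CPM. Each separated the groups, with the lowest Treg value in Treg 1 and the highest Tconv value in Tconv 3, so both cell types had their higher values over the divide. Anxa5, annexin A5, was even, at 298, 110.3 and 166 CPM and 195, 196 and 177 CPM.

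Cell cycle genes had the highest median of the lists, 2.36, with 23 of 27 higher, 3 lower and 7 without overlap above the Tconvs. However, 11 of the 27 did not have the same sign on both sides of the divide, and none was called. Among the 11 was Kif20a, which had no count in any heart library. Birc5, survivin, which acts in mitosis, stood at 29.6, 82.3 and 213 CPM in Tregs and 2.702, 3.200 and 0.568 CPM in Tconvs. Stmn1, a microtubule regulator, stood at 210.1, 223 and 265 CPM against 74.00, 101 and 64.3 CPM, and Mcm5, a part of the replicative helicase, at 28.3, 42.6 and 31.7 CPM against 7.296, 2.09 and 2.62 CPM. These 3 separated the groups, with adjusted p-values of 0.60, 0.60 and 0.60. Of the 3 lower members, 2 lay below the Tconvs without overlap. Bub1b, a spindle checkpoint kinase, stood at 0, 0 and 0 CPM in Tregs and 4.098, 0.04103 and 0.568 CPM in Tconvs, and Aurka, a mitotic kinase named for this count, at 1.89, 0 and 0 CPM and 12.03, 2.75 and 20.4 CPM. Cdc20, which triggers anaphase, overlapped at 1.63, 6.88 and 0 CPM and 0.0901, 8.82 and 0 CPM.

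For glycolysis and hypoxia, 18 of 24 genes were higher, with a median of 0.37, and 10 were higher on both sides. Bnip3, a hypoxia-induced mitochondrial protein, stood at 22.4, 66.9 and 75.98 CPM in Tregs and 1.22, 4.96 and 6.21 CPM in Tconvs, and Pgk1, phosphoglycerate kinase, at 248, 298 and 437 CPM and 103, 156 and 216 CPM. Both were higher in every Treg library. Ldha, lactate dehydrogenase, was even, at 2445, 1853 and 1894 CPM and 1450.2, 2614 and 1921 CPM. Interferon response genes were split 12 to 10. Ifi27l2a, an interferon-induced gene abundant in T cells, stood at 2303, 4504 and 4579 CPM in Tregs and 692, 896 and 1646 CPM in Tconvs, and the antiviral GTPase Mx1 at 0.04404, 0.0395 and 0 CPM and 1.98, 7.71 and 43.7 CPM. They separated the groups in opposite directions, with adjusted p-values of 0.58 and 0.60.

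Over all 14996 genes tested, 4.07% lay above the Tconvs without overlap and 8.17% below. Of these, list members included, 445 higher and 467 lower genes had the same sign on both sides of the divide and at least 20 CPM in the higher group. Predicted, mitochondrial and ribosomal protein genes were left out of this count and of the ranking below. So were immunoglobulin and T cell receptor segments, apart from genes named Tcrg. Ranked by the smaller of the 2 within-side differences, the widest gaps upward were Foxp3, Ccr3, Lrrc32, Il10, Rln3, Ccr6, Neb and Havcr2. Neb, which encodes the giant muscle protein nebulin, stood at 443, 297 and 318 CPM in Tregs and 7.25, 55.8 and 12.4 CPM in Tconvs, a log2 fold change of 3.81 ± 0.79 (adjusted p 0.091). The widest gaps downward were Gzmk, Hgsnat, Cnn3, Dapl1, Tcrg-C1, Slc12a7, St3gal6 and Pdlim4. Hgsnat, a lysosomal acetyltransferase, stood at 0.0881, 0 and 0 CPM in Tregs and 54.9, 38.1 and 53.8 CPM in Tconvs. Cnn3, the actin-binding calponin 3, stood at 0, 0 and 0 CPM against 33.9, 46.5 and 46.4 CPM, at least 1052-fold lower against the floor of 3 counts. Pdlim4, a LIM protein of the actin skeleton, stood at 0.04404, 0 and 0 CPM against 10.7, 42.9 and 34.1 CPM. These 3 genes were at or near 0 in all Treg libraries and present in all Tconv libraries, Pdlim4 least in Tconv 1, and had adjusted p-values of 0.60, 0.60 and 0.29. Slc12a7, a potassium-chloride cotransporter, stood at 0.04404, 0 and 0.114 CPM against 13.02, 36.8 and 26.6 CPM (adjusted p 0.27). St3gal6, a sialyltransferase, stood at 0, 0 and 24.8 CPM against 133, 53.9 and 111 CPM, the one of these genes that a Treg library expressed. Just outside the threshold lay Ccnd3, Ly6a and Cyb5a, named after their values were seen. Ccnd3, cyclin D3, stood at 48.4, 47.3 and 24.7 CPM in Tregs and 120.1, 161 and 269 CPM in Tconvs (adjusted p 0.065), and Cyb5a, cytochrome b5, at 639, 894 and 834 CPM and 164, 329 and 271 CPM (adjusted p 0.071). Ly6a, the surface antigen Sca-1, stood at 1804, 5277 and 5443 CPM and 745, 750.2 and 1578 CPM (adjusted p 0.067), and none of the 3 overlapped.

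**Figure D4:**
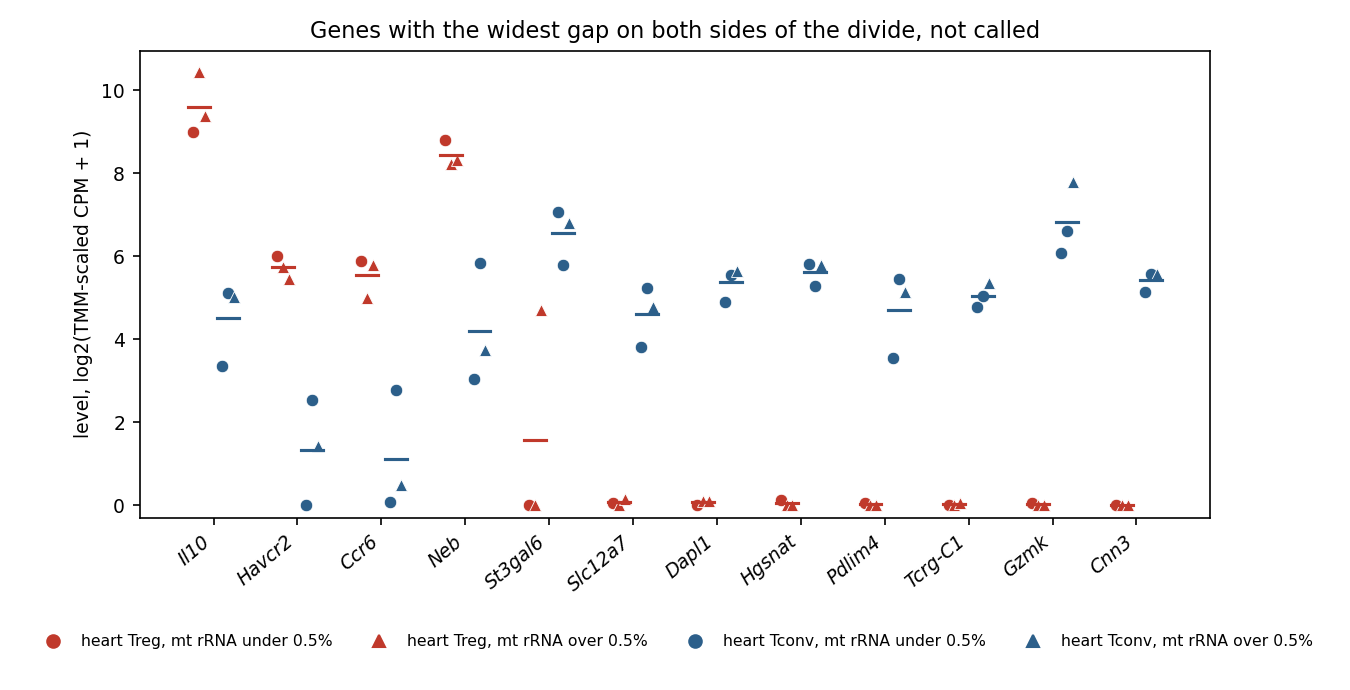
Levels in each heart library, as log2(TMM-scaled CPM + 1), of the genes with the widest gap on both sides of the divide that were not called; circles are libraries under and triangles over the 0.5% share, and bars are group means. Il10, Havcr2, Ccr6 and Neb stand higher in all 3 Treg libraries, and the other 8 genes stand near 0 in Tregs except St3gal6 in Treg 3.

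Transcripts of other cells were present in both groups, and their part in the results above was not tested. The sum of each list of other cell types overlapped between Tregs and Tconvs, apart from the B cell list with Ighm. H2-Aa was the only called member of these lists. The fibroblast list had 12 of 13 tested members higher in Tregs, none called, and its 17 members summed to 220 to 894 CPM in Tregs and 13.6 to 303 CPM in Tconvs, as CPM of the library total. Dcn, the matrix protein decorin, stood at 14.4, 323 and 168 CPM in Tregs and 1.13, 58.3 and 16.3 CPM in Tconvs. The lowest value of each group came from under the divide, in Treg 1 and Tconv 1. MHC class II and dendritic cell genes summed to 93.5 to 763 CPM in Tregs and 44.0 to 1197 CPM in Tconvs, with 2 of 8 tested members higher and 6 lower, and Itgax, the dendritic cell integrin, at 0 in all 6 libraries. The macrophage and monocyte list of 15 had 3 of 8 tested members higher and 5 lower in Tregs. Itgam, whose symbol is shared by another gene, had 526 counts in Tregs and 0 in Tconvs. That is at least 163.8-fold higher against a floor of 3 counts. Without Itgam, 9 of 14 members were at 0 in all Treg libraries and 3 in all Tconv libraries. Csf1r and Fcgr1 were among those at 0 in both groups. The sum of these 14 was 350 CPM in Tconv 1 and 0.918 to 86.4 CPM in the other 5 libraries. Lyz2, lysozyme, stood at 0, 0.0791 and 0 CPM in Tregs and 63.2, 9.03 and 0.0874 CPM in Tconvs, and the complement gene C1qb at 0, 0 and 0 CPM and 31.8, 0 and 0.0437 CPM, so these reads came from Tconv 1 above all. Tconv 1 was also the library with the most H2-Aa. Other libraries went differently: Tconv 3 held 90.6 CPM of H2-Aa with a macrophage sum of 1.34 CPM. Treg 1 had a macrophage sum of 86.4 CPM and H2-Aa at 0.

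B cell genes went in 2 directions. Ms4a1, which encodes the B cell antigen CD20, stood at 4.73, 0 and 0.219 CPM in Tconvs and at 0 in all Tregs. Ighm, the constant region of IgM, was nonetheless higher in Tregs, with 1022, 886 and 781 CPM in Tregs and 227, 208 and 304 CPM in Tconvs (adjusted p 0.1) and no overlap. Genes of CD8 and NK cells had 14 of 15 tested members lower in Tregs and a median of -3.61, with 6 without overlap. Cd8a stood at 6.89, 0 and 0 CPM in Tconvs and at 0 in all Tregs, and Klre1, an NK receptor, at 0.04404, 0 and 0 CPM in Tregs and 7.34, 20.4 and 13.5 CPM in Tconvs. Tcrg-C1, the constant region of the gamma chain of the T cell receptor, stood at 0, 0 and 0.0379 CPM in Tregs and at 26.3, 31.7 and 39.6 CPM in Tconvs, a ratio of 2421 on 1 Treg count with a counting interval of 434 to 95650 (adjusted p 0.29). Gamma chain reads were thus present in every Tconv library on both sides of the divide, and Cd8a in a single one. The part of such cells in the lower cytotoxic and Th17 genes of Tregs was not tested. Cardiomyocyte genes had 2 of 15 members tested and summed to 0.106 to 17.004 CPM in Tregs and 5.18 to 23.8 CPM in Tconvs.

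Whether the Treg-Tconv gap of the heart differs from that of a lymphoid organ was tested as an interaction. Against the spleen 2 of 14996 genes passed in edgeR (0.0133%), Cdkn1a and H2-Aa, and against the NDLN also 2 (0.0133%), H2-Aa and Tnfrsf1b; in each the heart gap was the lower one. These tests share the heart libraries. Unadjusted p-values under 0.05 numbered 1124 (7.5%) against the spleen and 1490 (9.94%) against the NDLN. Limma-voom called 33 (0.22%) and 84 (0.56%), and DESeq2 850 (5.67%) and 1375 (9.17%). Without Heart Treg 1 edgeR called 10 genes against the spleen and 4 against the NDLN; without a Tconv library of the NDLN it called 4 (Tconv 1), 7 (Tconv 2) or 39 (Tconv 3). Against the spleen a single gene was left without spleen Tconv 1 or Tconv 3, and against the NDLN without Heart Tconv 1, Heart Tconv 3, NDLN Treg 2 or NDLN Treg 3.

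H2-Aa turned round between the tissues. In the heart it was at or near 0 in Tregs and present in Tconvs, as given above. In the spleen it stood at 179, 368 and 245 CPM in Tregs and 4.68, 68.4 and 77.4 CPM in Tconvs, and in the NDLN at 189, 126 and 96.4 CPM in Tregs and 0.117, 0 and 0 CPM in Tconvs. Every spleen and NDLN Treg library thus exceeded the Tconvs of its tissue, the opposite of the heart, with adjusted p-values of 0.015 against the spleen and 0.0002 against the NDLN. Other genes of B cells, which carry MHC class II, stood apart in the same direction in the lymphoid organs. Ms4a1 stood at 57.1, 43.3 and 57.98 CPM in Tregs and 0, 3.19 and 0 CPM in Tconvs of the spleen and at 57.4, 44.3 and 51.9 CPM and 0, 0.0418 and 0.0863 CPM in the NDLN, and at 0 in heart Tregs. Leaving out Ighm, the other members of the B cell list of 12 summed to 290.3 to 625 CPM of the library total in Tregs and 0.0371 to 29.4 CPM in Tconvs of the spleen, and to 294 to 325 CPM and 1.49 to 2.205 CPM in the NDLN. In the heart they summed to 0.149 to 23.4 CPM in Tregs and 0 to 66.2 CPM in Tconvs, and 6 of the 12, Ms4a1 and Pax5 among them, were at 0 in all heart Tregs. With Ighm the sums were 1397 to 3532 and 393 to 535 CPM in the spleen, 1160.5 to 1367 and 244 to 595 CPM in the NDLN, and 750.2 to 1254 and 252 to 357 CPM in the heart. The dendritic cell and MHC class II list, which holds H2-Aa itself, summed to 744 to 2333 CPM in Tregs and 54.1 to 259 CPM in Tconvs of the spleen and to 348 to 873 CPM and 0.204 to 93.97 CPM in the NDLN, with Itgax at 0 in all these libraries. The part of such cells in the H2-Aa result was not tested. The call against the spleen was lost without Heart Treg 3 or any 1 of the 3 spleen Tconv libraries, with adjusted p-values of 0.052 to 0.11. Cdkn1a encodes p21, an inhibitor of the cell cycle induced by p53 (ENSMUSG00000023067, chromosome 17, 29090976 to 29100727, plus strand). It stood at 97.7, 219 and 269 CPM in heart Tregs and 159.8, 198 and 189.9 CPM in heart Tconvs. The spleen had 30.02, 15.4 and 6.68 CPM in Tregs and 0, 0.0393 and 0 CPM in Tconvs, and the NDLN at most 0.0953 CPM in any library. The heart thus had p21 transcripts in both cell types with overlap and the spleen, beyond a trace, in Tregs alone (adjusted p 0.0022). Tnfrsf1b encodes TNFR2, the TNF receptor that supports Tregs (ENSMUSG00000028599, chromosome 4, 145213463 to 145246870, minus strand). It stood at 252, 122 and 185 CPM in heart Tregs and 107, 151 and 81.8 CPM in heart Tconvs, and in the NDLN at 60.6, 71.6 and 122 CPM in Tregs and 0.0586, 0 and 0.604 CPM in Tconvs. All 3 heart Tconv libraries expressed it while those of the NDLN did not beyond a trace (adjusted p 0.045). In the spleen the Tregs stood at 77.8, 82.9 and 38.8 CPM and the Tconvs at 0.563, 5.43 and 2.42 CPM, and the test against the spleen did not pass (adjusted p 0.60). Leaving out any 1 of the 6 heart libraries took the Tnfrsf1b call away, with adjusted p-values of 0.064 to 0.16, as did leaving out NDLN Treg 2, NDLN Treg 3 or NDLN Tconv 1.

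**Figure D5:**
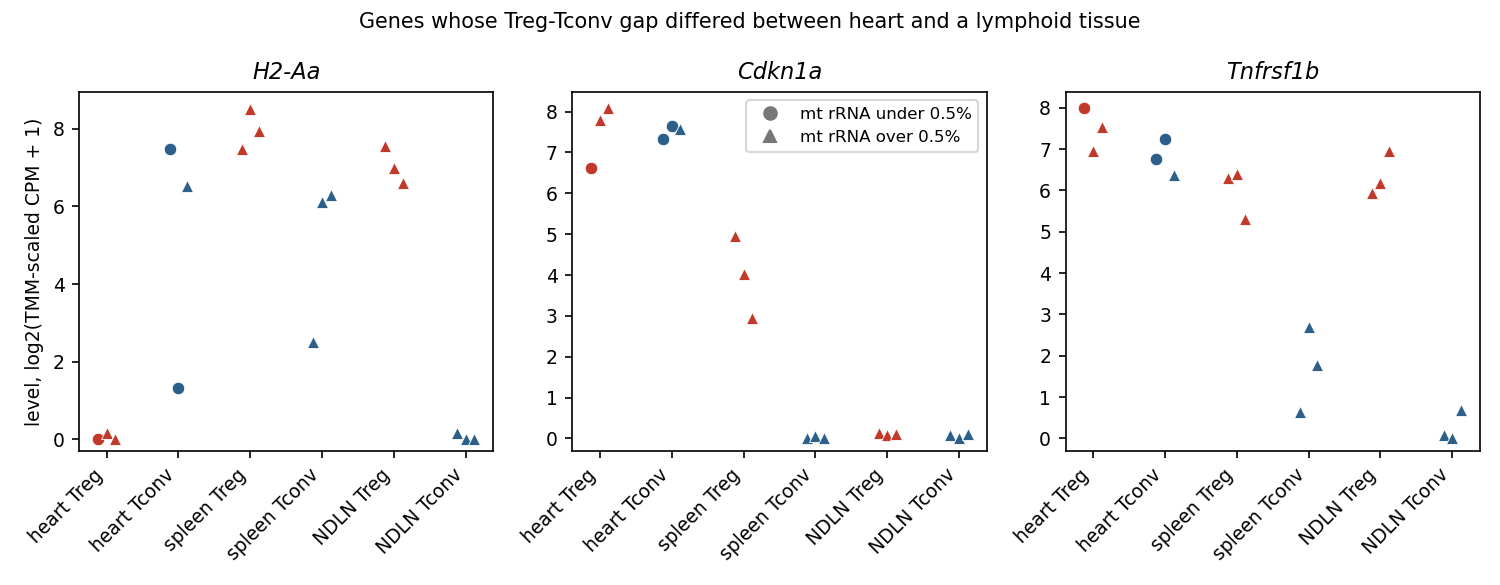
Levels of H2-Aa, Cdkn1a and Tnfrsf1b in each library of Tregs (red) and Tconvs (blue) of heart, spleen and NDLN, as log2(TMM-scaled CPM + 1), with circles for libraries under and triangles over the 0.5% share. H2-Aa is at or near 0 in the heart Tregs and NDLN Tconvs, and Cdkn1a and Tnfrsf1b are present in all 6 heart libraries.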

How the data were processed

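RNA of sorted T cells was sequenced in 21 libraries in 7 groups of 3, grouped by their titles. The authors deposited a raw count per gene and library, in whole numbers with no normalization. The submitters' processing notes name CASAVA 1.8.2, HISAT2, HTSeq 0.6.0 and mm10; the sources used here give neither annotation nor strand setting. There were 49510 genes and 0 unused columns; 49326 IDs were matched in GENCODE M21 (GRCm38), 26 symbols turned into dates were restored, and 168 genes share a symbol.

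Genes were kept by filterByExpr (minimum count 10, minimum total 15), which left 14996. All libraries entered a single fit with a coefficient per group in edgeR 4.0.16 (R 4.3.3; TMM factors from 0.798 to 1.35, robust quasi-likelihood test, Benjamini-Hochberg over all genes, threshold 0.05). Common dispersion was estimated at 2.19 (biological coefficient of variation 1.48). SE was taken from the log2 fold change and F. Ratios against 0 to 3 counts are of scaled sums, with 95% intervals that cover counting error only. Replicates of the heart groups all differed by more than sampling noise. DESeq2 1.42.0 and limma-voom (limma 3.58.1), other filters and scalings, a replicate block, the side of the divide as covariate and fits without single libraries were tried, and the fit was tested on simulated data. Leaving out spleen and NDLN libraries was added after seeing the data.

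Members and lists were chosen with earlier results of these data known. Genes named are all called genes; the 8 highest and 8 lowest by the smaller within-side difference (no overlap, same sign on both sides, at least 20 CPM in the higher group); up to 4 members with the smallest and 2 with the largest p of each list; checks such as Cd4 and Cd3e; and called interaction genes. Others are said to be chosen after their values were seen, or are named for a count of 0 or an overlap. Some genes that this rule names are not reported here.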

Additional observations from a re-analysis of the deposited data

Results flagged for a closer look

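In 3 genes the gap between Tregs and Tconvs of the heart differed by edgeR's interaction test from that of a lymphoid organ. The difference of the log2 gaps, heart minus spleen, was -9.64 for Cdkn1a (adjusted p 0.0022) and -13.3 for H2-Aa (adjusted p 0.015). Heart minus NDLN, it was -22.5 for H2-Aa (adjusted p 0.0002) and -8.01 for Tnfrsf1b (adjusted p 0.045). Fitted values of this size rest on groups at or near 0 counts and depend on the prior count, so they are no bounds. Such groups are the spleen Tconvs for Cdkn1a, the heart Tregs and NDLN Tconvs for H2-Aa and the NDLN Tconvs for Tnfrsf1b. H2-Aa is also a gene of other cell types. Tconv 1 of the heart, which held the most H2-Aa of the heart libraries, held the most Lyz2 and C1qb as well. Tconv 3 of the heart held 90.6 CPM of H2-Aa with Lyz2 at 0.0874 CPM and C1qb at 0.0437 CPM. B cell genes such as Ms4a1 were higher in Tregs than in Tconvs of the spleen and the NDLN. Means of 3 libraries for Ms4a1 were 52.8 against 1.06 CPM in the spleen and 51.2 against 0.0427 CPM in the NDLN. The part of such cells in the H2-Aa gap was not tested.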

How the results depend on the processing

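With few libraries and a wide spread, counts of calls moved with the tool and with single libraries. Between heart Tregs and Tconvs, 105 genes were called without a filter on low counts, 981 by DESeq2, 206 by limma-voom, 1 in the 6 heart libraries alone, 0 in the libraries of either side alone, and 3 to 33 without 1 heart library. The difference between the sides gave 37, 765 and 4 calls under the first 3 of these settings and 1 to 12 without 1 library. Against the spleen they gave 60, 850 and 33, and 1 to 10 without 1 library; against the NDLN 178, 1375 and 84, and 1 to 39, with 1 under DESeq2's size factors and 1 with the side as covariate. Replicate numbers did not pair the heart libraries (correlations of deviations 0.0607, -0.06 and 0.0992 for the same number), and not every library correlated best with its own number. With the replicate block 9 genes were called in the heart, 7 of them among the 10, and 1 each against the spleen and the NDLN. The share of genes with the same sign on both sides was 52.1% from 1 CPM and 55.9% from 20 CPM, and 53.3% to 54.4% without 1 library. Some directions of uncalled genes turned, and the cause was not tested: under the divide alone, Cd3e (0.18), Cdkn1a (-0.90) and Dcn (-1.04); over it alone, Cd160 (0.37). Without 1 library, Cd3e ran from -0.38 to 0.13 and turned without Tconv 3, Cd4 from -0.81 to 0.28 and turned without Treg 3 or Tconv 1, and Cdkn1a from -0.20 to 0.42 and turned without Treg 3. Of 1392 repeats of single genes 1210 kept their direction and side of the threshold, 76 lost and 98 gained a call. The number of list members higher in Tregs stayed within its binomial interval in 499 of 527 repeats, under DESeq2's size factors in every list.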

Other observations

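Lists of further cell types were thinly covered in the heart libraries. Of the neutrophil list 5 of 11 members were tested, and it summed to 31.5, 15.03 and 0.0353 CPM of the library total in Tregs 1, 2 and 3 and to 29.8, 0.0997 and 0.268 CPM in Tconvs 1, 2 and 3. Cxcr2, Ly6g, Mmp8 and Retnlg were at 0 in all 6 libraries. Endothelial genes, with 3 of 12 tested, summed to 51.6 to 269 CPM in Tregs and 20.7 to 83.3 CPM in Tconvs, with Cldn5 and Tie1 at 0 throughout. Erythroid and platelet genes, with 7 of 11 tested, summed to 2.02 to 88.4 CPM in Tregs and 1.32 to 33.8 CPM in Tconvs, highest in Treg 3 and Tconv 3. Innate lymphoid and gamma delta T cell genes had 2 of 9 tested members higher and 7 lower in Tregs.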
